A study of Mus musculus with 41 samples.

Results

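In the reciprocal lesion transfer, endometriosis lesions that grew in hosts of one genotype from uterine fragments of the other were compared by bulk RNA sequencing. The comparison holds 8 of the 41 libraries of the study, chosen by their titles, with 4 in each group. In the first group, uterine fragments of Nmur1iCre-eGFP mice (Cre control) grew in Nmur1iCre-eGFP Id2fl/fl hosts (deficient). In the second, Nmur1iCre-eGFP Id2fl/fl fragments grew in Nmur1iCre-eGFP hosts. They are called deficient-host and Cre-host lesions here. For all 8 libraries the mice received IL-33, as 3 injections of 1 µg into the peritoneal cavity over 6 days, begun on day 7. The mice were 12 to 16 weeks old, and each fragment was a punch of 4 mm fixed to the inner wall of the cavity. The fragments and hosts of all 8 libraries therefore carry the Nmur1-driven Cre, and they differ in whether Id2 is floxed. Fragment and host genotype change together and in opposite directions, so each fold change below combines a deficient host with a non-deficient fragment and the reverse. As a second reference, 8 IL-33-treated libraries of lesions taken to have grown in hosts of their own genotype (4 deficient, 4 Cre control) were used, which share no library with the transfer.

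Group 2 innate lymphoid cells (ILC2s) are tissue-resident lymphocytes without antigen receptors. The alarmin IL-33 binds their receptor ST2, encoded by Il1rl1, and they respond with interleukin-5, which sustains eosinophils, and interleukin-13, which acts through the transcription factor STAT6 on macrophages, stromal cells and epithelium. Id2 encodes a transcriptional regulator that innate lymphoid cells need, and the neuropeptide receptor gene Nmur1 drives the Cre because ILC2s use it with few other cells. In endometriosis, tissue like the lining of the uterus grows outside it, most often on the peritoneum.

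Total counts were 28924819 to 48096788 in deficient-host and 37908870 to 41219996 in Cre-host lesions. Levels are given as CPM, counts per 1000000 counts of the scaled library total, in the order of replicates 1 to 4. Replicate 3 of the deficient-host lesions, which had the lowest total, stood apart. The 12 T cell genes took 0.0624% of its counts, against 0.00316% to 0.00383% in the other 3, and 22 interferon response genes took 0.371% against 0.0545% to 0.0676%. In Cre-host lesions the interferon share was 0.0932%, 0.0293%, 0.0564% and 0.0322%, so that the groups overlapped. Replicate 1 of the Cre-host lesions also had a high T cell share, 0.0127% against 0.00248% to 0.00303%. Fragment tissue varied as well: the uterine gene Hoxa11 stood at 0.0766, 10.4, 29.9 and 43.9 CPM in deficient-host and 2.02, 3.03, 5.58 and 19.4 CPM in Cre-host lesions, where replicate 1 of the deficient-host group held 3 counts. By 10 transcripts that follow the floxed genotype, given in full after the other results, 7 of the 8 libraries lay nearer to the genotype of the host than to that of the fragment. The labels name no batch, but the library names of each group are consecutive or nearly so, and any batch that follows them cannot be told apart from the group. Whether replicates came from separate animals is not in the labels either. The 41 libraries also include C57Bl/6J and Id2fl/fl lesions, deficient lesions given PBS without IL-33, and lesions of mice that received ILC2s. A p-value here sets a difference against the spread among libraries within groups, estimated over all 41 libraries. Since separate animals are not stated, that spread may be technical. In whole lesions, fewer cells of a type and less RNA per cell cannot be told apart.

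Id2 itself, on chromosome 12, 25093799 to 25097140 (GRCm38), stood at 37.4, 54.3, 56.3 and 33.6 CPM in deficient-host and 48.1, 39.5, 32.0 and 33.7 CPM in Cre-host lesions. The groups overlapped, with a log2 fold change of 0.24 ± 0.26, adjusted p = 0.737. Few cells use the Cre driver, so this level does not check the deletion.

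Of 21249 genes, 214 (1.01%) differed between deficient-host and Cre-host lesions at an adjusted p under 0.05. Among them, 125 (0.588% of all genes) were lower and 89 (0.419%) higher in deficient-host lesions. Among the genes that fell were 2 of 4 type 2 cytokines and alarmins, 5 of 16 genes of alternatively activated macrophages, 2 of 7 eosinophil genes, 1 of 6 collagen VI chains, 8 of 13 genes of the amino acid stress response and 3 of 15 clock genes. Among those that rose were 6 of 22 interferon response genes, 3 of 20 cell-division genes, a lymph node adhesion ligand and a pair of Wnt antagonists. Fold changes are log2 values ± standard error from edgeR's quasi-likelihood test, whose estimate of spread came from all 41 libraries, and p-values are adjusted by the Benjamini-Hochberg method. The median over all genes was 0.03.

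The size of this set rested on the libraries used. Leaving out Cre-host replicate 2 left 54 genes and leaving out Cre-host replicate 4 left 66. Fitted on the 8 libraries alone, 3 of 20169 genes (0.0149%) passed, Col6a5, Il13 and Rnase2a. In all 8 fits that each left out 1 library, 40 of the 214 genes passed (27 lower and 13 higher). All 214 kept their sign in every one of those fits. The fits reuse the libraries that chose the 214, so kept signs are no independent support.

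The 2 main cytokine genes of ILC2s fell in deficient-host lesions. Il13, on chromosome 11, 53631324 to 53634702, stood at 0.128, 0.112, 0.213 and 0.211 CPM in deficient-host and 1.45, 1.99, 1.96 and 1.81 CPM in Cre-host lesions, which is 5 to 8 counts against 53 to 85. Every deficient-host library lay below every Cre-host library. The difference was 10.8-fold (log2 −3.43 ± 0.55, adjusted p = 0.00128). Il5, its neighbour on chromosome 11, 53720794 to 53725106, stood at 0.204, 0.0897, 0.122 and 0.264 CPM against 0.929, 1.81, 0.535 and 1.21 CPM, from 4 to 10 and 21 to 77 counts. Again the groups did not overlap, and Il5 was 6.52-fold lower (−2.70 ± 0.49, adjusted p = 0.00444). The alarmin genes did not pass: Il33 stood at 28.1 to 65.0 CPM against 36.8 to 56.3 (−0.23 ± 0.43, adjusted p = 0.874), and Tslp at 0.213 to 0.808 against 0.929 to 2.02 (−1.37 ± 0.44, adjusted p = 0.125). Of the 4 measured cytokines and alarmins, 2 were thus lower, 3 had groups that did not overlap, and the median was −2.04. Groups without overlap in this direction occurred in 4.31% of all genes.

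**Figure D1:**
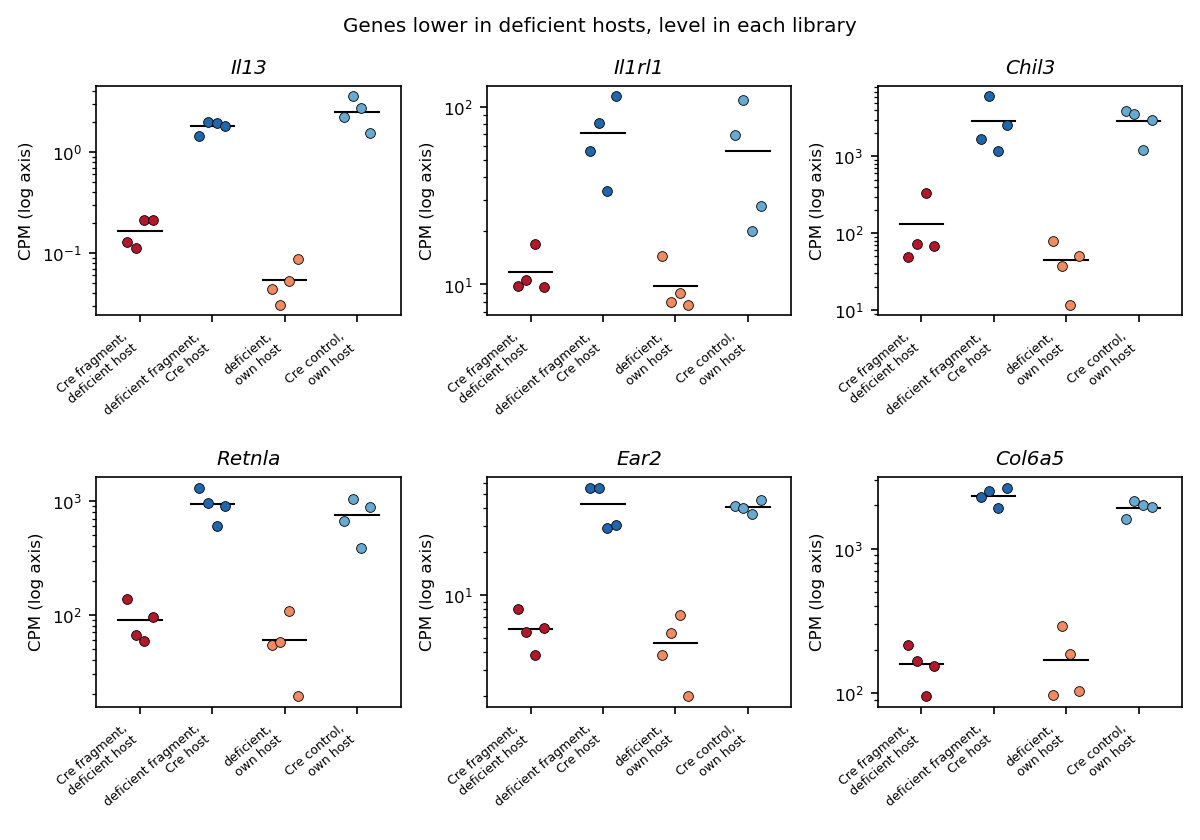
Levels of 6 genes in CPM on a log axis, 1 point per library, with the mean of each group as a bar, for both transfer groups and both own-host groups (n = 4 each). In each panel the 4 deficient-host libraries lie below the 4 Cre-host libraries, for Col6a5 at 95.1 to 218 against 1905 to 2639 CPM.

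Of 19 measured genes of ILC2 identity and receptors, 2 fell and none rose (median −0.60). Il1rl1, which encodes the IL-33 receptor ST2, stood at 9.75, 10.6, 16.95 and 9.71 CPM in deficient-host and 56.5, 81.3, 33.3 and 114 CPM in Cre-host lesions. The lowest Cre-host library was above the highest deficient-host library, and the gene was 6.08-fold lower (log2 −2.60 ± 0.44, adjusted p = 0.00241). Nmur1, whose promoter drives the Cre, held 0, 3, 0 and 7 counts in deficient-host lesions and 53, 59, 26 and 92 in Cre-host lesions. It was 21.4-fold lower (−4.42 ± 1.03, adjusted p = 0.0246), though it did not pass without deficient-host replicate 1, 2 or 3 or without Cre-host replicate 2 or 4, with an adjusted p of at most 0.0840. The IL-25 receptor subunit gene Il17rb had groups that did not overlap (0.434 to 1.80 against 6.45 to 8.16 CPM) but did not pass (−3.04 ± 0.85, adjusted p = 0.0708).

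Other ILC2 markers depended on the T-cell-rich library. Gata3, the master transcription factor of ILC2s that T helper type 2 cells share, stood at 2.50, 2.56, 14.4 and 2.24 CPM in deficient-host and 11.4, 7.72, 6.37 and 4.64 CPM in Cre-host lesions (−0.47 ± 0.38, adjusted p = 0.638). Replicate 3 was the highest of all 8, and the other 3 deficient-host libraries lay below all 4 Cre-host libraries. Without it Gata3 was at −1.62 with an adjusted p of 0.00161. Il2ra, the high-affinity receptor subunit for interleukin-2 that regulatory T cells share, stood at 5.31, 4.35, 23.1 and 4.93 CPM against 23.4, 29.3, 13.3 and 22.4 (−1.23 ± 0.42, adjusted p = 0.159), and at −2.18 with an adjusted p of 0.00286 without replicate 3. Klrg1 did not pass with or without it (0.897 to 4.38 against 1.33 to 2.90 CPM, −0.18 ± 0.43, adjusted p = 0.905). The part of T cells in these levels was not tested.

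Alternatively activated macrophages, the state that interleukin-4 and interleukin-13 induce, were represented by 16 measured genes, of which 5 fell and none rose (median −1.52). Chil3, on chromosome 3, 106147554 to 106167564, encodes the chitinase-like protein Ym1. It stood at 49.0, 72.8, 334 and 68.0 CPM in deficient-host and 1679.6, 6042, 1179 and 2570.2 CPM in Cre-host lesions. The groups did not overlap, replicate 3 was the highest deficient-host library, and the difference was 21.9-fold (log2 −4.45 ± 1.03, adjusted p = 0.0244). Retnla, on chromosome 16, 48842551 to 48844461, encodes the secreted resistin-like protein RELMα. Its levels were 139, 66.7, 58.4 and 95.1 CPM against 1305, 953, 610.1 and 905, again without overlap (10.5-fold lower, −3.39 ± 0.83, adjusted p = 0.0366). Mrc1, the mannose receptor, was at −1.34 ± 0.34 (adjusted p = 0.0407), and Slc7a2, an arginine transporter, at −1.88 ± 0.42 (adjusted p = 0.0186). Ch25h, a cholesterol hydroxylase, was at −1.70 ± 0.44, adjusted p = 0.0481, with 1 Cre-host library inside the range of the deficient-host lesions. Arg1, the arginase of these cells, did not pass (124 to 382 against 315 to 1415 CPM, −1.84 ± 0.67, adjusted p = 0.189).

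The macrophage calls were not stable to single libraries. No gene of the list passed without deficient-host replicate 2 or 4 or Cre-host replicate 2 or 4, 1 passed without deficient-host replicate 1 and 3 without deficient-host replicate 3. The list's median stayed between −1.73 and −1.22 in those 8 fits. For Chil3 the log2 fold change ran from −5.50 to −3.78 with an adjusted p of up to 0.115, and for Retnla from −3.68 to −3.20 and up to 0.0952. Retnla passed in 1 of those fits, the one without Cre-host replicate 3.

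Chemokines that draw eosinophils and T helper type 2 cells fell as well, 3 of 8 measured genes with none rising (median −0.93). Ccl24, eotaxin-2, stood at 5.39, 4.37, 10.5 and 7.68 CPM in deficient-host and 28.1, 41.6, 14.6 and 43.8 CPM in Cre-host lesions (4.58-fold lower, log2 −2.20 ± 0.48, adjusted p = 0.0173). Ccl11, eotaxin-1, was 2.98-fold lower, at 14.2, 13.8, 6.60 and 10.1 CPM against 40.6, 37.3, 21.1 and 34.2 (−1.57 ± 0.35, adjusted p = 0.0178). In both genes every deficient-host library was below every Cre-host library. Ccl17, a ligand of the receptor CCR4, stood at 0.587, 0.763, 1.64 and 0.659 CPM against 5.44, 7.46, 1.56 and 7.97. Here replicate 3 of the deficient-host lesions was above replicate 3 of the Cre-host lesions (6.15-fold, −2.62 ± 0.60, adjusted p = 0.0218). None of the list passed without Cre-host replicate 2 or 4, and 1 passed without deficient-host replicate 1, 2 or 4.

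STAT6, the factor downstream of the interleukin-4 and interleukin-13 receptors, binds paired half-sites, so the promoters of the genes that fell were searched for TTC and GAA with any 4 bases between them, which reads alike on both strands. RefSeq promoters (GRCm38.p6, 300 bases from 250 before to 50 after the gene's start) were matched for 83 of the 125 genes, and 11 of them (13.3%) held a match, against 6.91% of 13410 genes. Retnla and Ccl17 were among the 11, and the 250 bases before each start are shown because both genes are known targets of these cytokines. Capitals mark the match, whose last base lies 136 bases before the start of Retnla and 145 before that of Ccl17. Both stretches lie on the plus strand, chr16:48842359-48842608 and chr8:94810203-94810452.
Retnla: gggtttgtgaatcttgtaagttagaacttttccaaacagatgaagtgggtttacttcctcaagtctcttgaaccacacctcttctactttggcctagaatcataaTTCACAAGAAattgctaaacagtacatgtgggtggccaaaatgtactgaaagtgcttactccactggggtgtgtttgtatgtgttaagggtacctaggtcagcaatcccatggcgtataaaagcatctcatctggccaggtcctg
Ccl17: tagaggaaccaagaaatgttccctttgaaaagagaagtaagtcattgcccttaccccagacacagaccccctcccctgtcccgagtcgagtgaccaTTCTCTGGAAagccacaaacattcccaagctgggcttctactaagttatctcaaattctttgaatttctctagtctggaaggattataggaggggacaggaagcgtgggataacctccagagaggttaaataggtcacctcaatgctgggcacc
A match describes these letters and was not tested as a binding site.

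The eosinophil ribonuclease genes Rnase2a and Ear2 fell, also in each of the 8 fits without 1 library. Rnase2a, on chromosome 14, 51255262 to 51256112, stood at 5.41, 2.51, 3.35 and 3.72 CPM in deficient-host and 66.6, 136, 41.9 and 94.1 CPM in Cre-host lesions, and Ear2, on chromosome 14, 44102654 to 44103534, at 7.94, 5.52, 3.80 and 5.86 against 55.3, 55.1, 29.0 and 30.7 CPM. The groups were wide apart in both. Rnase2a was 22.6-fold lower (log2 −4.50 ± 0.82, adjusted p = 0.00444) and Ear2 7.35-fold lower (−2.88 ± 0.39, adjusted p = 0.000254). Macrophages can also make these ribonucleases, and the other 5 measured eosinophil genes did not pass, among them Siglecf, a lectin of eosinophils, at 1.33, 2.47, 3.10 and 0.712 against 3.52, 2.70, 3.75 and 1.98 CPM (−0.65 ± 0.35, adjusted p = 0.424). With 2 of 7 lower, the list's median was −0.70.

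The receptors themselves gave 1 call among 11 genes of interleukin-4 and interleukin-13 receptors and STAT6 signalling. Il13ra2, a receptor that binds interleukin-13 without signalling through STAT6 and that the cytokine induces, stood at 0.996, 0.897, 0.396 and 0.659 CPM in deficient-host and 3.14, 5.09, 1.99 and 4.10 CPM in Cre-host lesions. All deficient-host libraries were lower (4.83-fold, log2 −2.27 ± 0.50, adjusted p = 0.0173). The call was lost without deficient-host replicate 3 or 4 or Cre-host replicate 2 or 4 (adjusted p at most 0.0891).

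Col6a5, a collagen VI chain encoded on chromosome 9, 105856078 to 105960643, stood at 218, 168, 95.1 and 155 CPM in deficient-host and 2285, 2493, 1905 and 2639 CPM in Cre-host lesions, and was 14.7-fold lower (log2 −3.87 ± 0.54, adjusted p = 0.000254). The main chains Col6a1 and Col6a2 had groups that did not overlap but did not pass (−0.80 ± 0.22, adjusted p = 0.0621, and −0.80 ± 0.23, adjusted p = 0.0899), except without deficient-host replicate 4, where 3 of the 6 chains passed. Col6a3 was at 0.46 (adjusted p = 0.459). Loxl3, an enzyme that crosslinks collagen, stood at 48.6, 47.1, 35.8 and 49.9 against 118, 198, 103 and 352 CPM and was 4.25-fold lower (−2.09 ± 0.34, adjusted p = 0.00139). Among 20 genes of fibrillar matrix and crosslinking, Loxl3 was the 1 that fell and Col11a1, a minor fibrillar collagen, the 1 that rose (1.55 ± 0.39, adjusted p = 0.0419, which did not pass without deficient-host replicate 2 or 4 or without any 1 of the Cre-host libraries, adjusted p at most 0.169), with a list median of −0.19. Of 19 matrix proteases and inhibitors none passed (median −0.02).

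Genes that cells switch on when amino acids run short, through the transcription factor ATF4, fell together: 8 of 13 measured members were lower and none higher (median −1.32), and 10 had groups that did not overlap. Over all genes, 4.31% had no overlap in this direction. Asns, asparagine synthetase, stood at 9.19, 10.7, 13.5 and 10.8 CPM in deficient-host and 32.3, 68.5, 24.4 and 81.7 CPM in Cre-host lesions (4.68-fold lower, log2 −2.23 ± 0.32, adjusted p = 0.000357). Aldh1l2, a mitochondrial enzyme of folate metabolism, stood at 18.8, 17.9, 11.05 and 22.8 against 61.0, 106, 53.5 and 157.95 CPM (5.37-fold lower, −2.42 ± 0.34, adjusted p = 0.000254). Cre-host replicates 2 and 4 were the highest for both, and every Cre-host library was above every deficient-host library. The pseudokinase gene Trib3, an ATF4 target, was at −2.50 ± 0.41, adjusted p = 0.00139, and Mthfd2, another mitochondrial folate enzyme, at −1.63 ± 0.32, adjusted p = 0.00849. The serine synthesis enzymes Phgdh (−1.69 ± 0.34, adjusted p = 0.00910) and Psat1 (−1.26 ± 0.28, adjusted p = 0.0197) and Atf4 itself (−0.65 ± 0.15, adjusted p = 0.0218), named after their values were seen, passed too. Between 4 and 9 members passed when 1 library was left out, with 4 both without Cre-host replicate 2 and without Cre-host replicate 4, and Asns, Aldh1l2 and Trib3 passed in all 8 fits. Mthfd2 did not pass without Cre-host replicate 2 (adjusted p = 0.0557) and Phgdh without Cre-host replicate 4 (adjusted p = 0.0840). Psat1 and Atf4 did not pass without replicate 2 or 4 of either group, nor Atf4 without deficient-host replicate 3 (adjusted p at most 0.115 and 0.125).

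Of 15 clock genes, 3 fell and none rose (median −0.54). Per2, a repressor of the clock, stood at 30.8, 21.6, 13.7 and 24.7 CPM in deficient-host and 46.6, 59.7, 62.0 and 54.01 CPM in Cre-host lesions, with no overlap (2.45-fold lower, log2 −1.29 ± 0.25, adjusted p = 0.00736). Per3, its relative, stood at 32.5, 25.3, 16.8 and 27.3 against 52.4, 49.5, 64.4 and 45.1 CPM (−1.05 ± 0.19, adjusted p = 0.00401), and Dbp, a transcription factor that the clock drives, at 14.6, 11.1, 8.13 and 13.4 against 32.4, 28.3, 27.4 and 26.0 CPM (−1.27 ± 0.28, adjusted p = 0.0170). Deficient-host replicate 3 was the lowest library for all 3 genes. Without it, or without Cre-host replicate 2, Dbp did not pass (adjusted p at most 0.0674), while Per2 and Per3 passed in all 8 fits. At what hour the lesions were collected is not given in the labels.

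**Figure D2:**
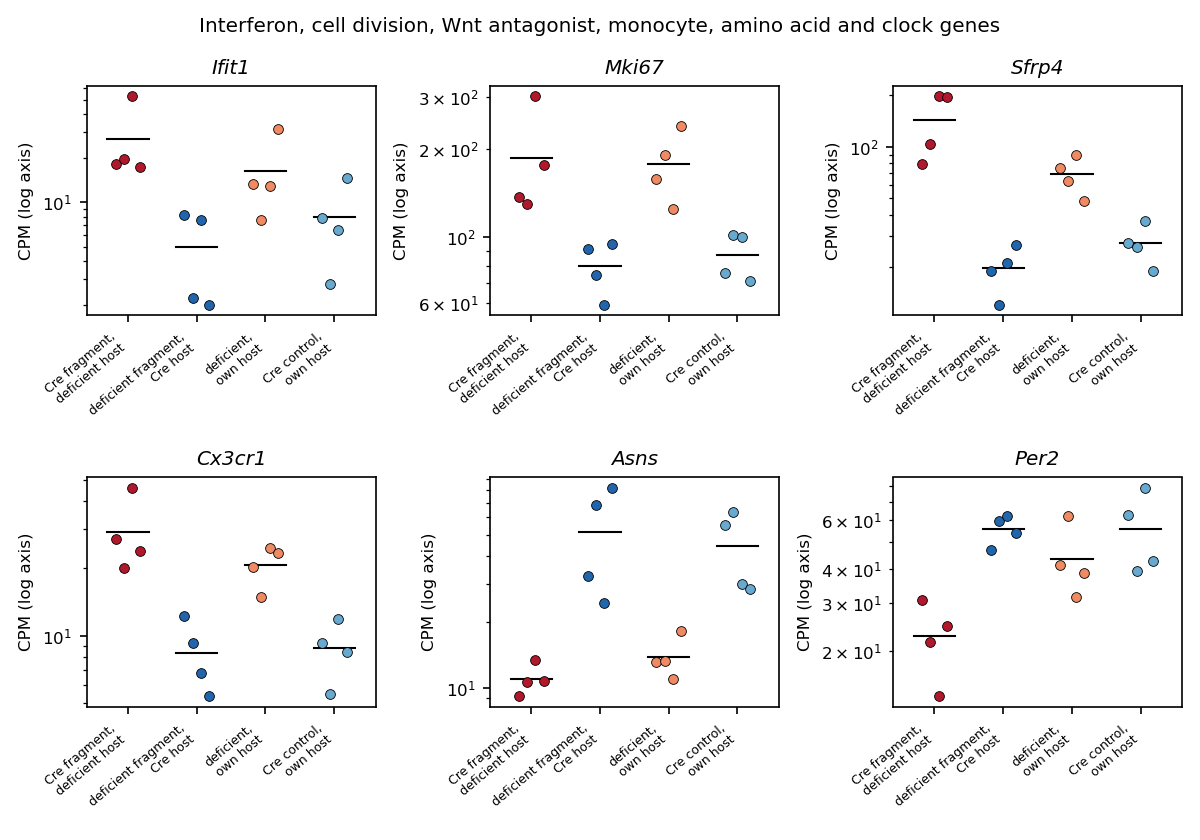
Levels of Ifit1, Mki67, Sfrp4, Cx3cr1, Asns and Per2 in CPM on a log axis, 1 point per library, with group means as bars, for both transfer groups and both own-host groups (n = 4 each). The deficient-host libraries lie above the Cre-host libraries for the first 4 genes and below them for Asns and Per2, with 1 deficient-host library at 52.5 CPM for Ifit1.

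Among the 12 genes with the lowest fold changes were several outside these lists. Car4, a membrane-bound carbonic anhydrase, was at 2.005 to 7.38 CPM in deficient-host and 30.9 to 54.5 CPM in Cre-host lesions (log2 −3.42 ± 0.88, adjusted p = 0.0473), and Adm2, a peptide of the adrenomedullin family, at 0.0255 to 0.852 against 1.38 to 8.93 CPM (−4.11 ± 1.01, adjusted p = 0.0357). Neither had overlapping groups, and neither passed without deficient-host replicate 1, 2 or 4 or without Cre-host replicate 2 or 4 (adjusted p at most 0.137). The noncoding gene Gm49087, on chromosome 14, 43979713 to 43987466 near the Ear2 gene, was at 0.158 to 0.587 against 3.69 to 5.56 CPM (−3.61 ± 0.68, adjusted p = 0.00585) and passed in all of them. The antisense genes 4930542D17Rik (−3.72 ± 0.80, adjusted p = 0.0165) and Gm15247 (−3.13 ± 0.73, adjusted p = 0.0246) fell too, and neither passed without deficient-host replicate 4 or Cre-host replicate 2 or 4 (adjusted p at most 0.0636 and 0.0840). Without a stated strand setting antisense counts cannot be told apart from those of the opposite strand. Inhba, a subunit of activin A, stood at 17.2, 28.3, 17.3 and 28.9 against 49.8, 89.8, 37.0 and 52.9 CPM (2.50-fold lower, −1.32 ± 0.27, adjusted p = 0.0107). All its deficient-host libraries were lower, and it failed to pass only without Cre-host replicate 2, at −1.01 (adjusted p = 0.0990).

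The secreted Wnt antagonist genes Sfrp4 and Frzb rose in deficient-host lesions. Sfrp4, on chromosome 13, 19623104 to 19632994, stood at 79.0, 103, 197 and 197 CPM in deficient-host and 18.8, 11.9, 20.9 and 26.8 CPM in Cre-host lesions. Its lowest deficient-host library was above the highest Cre-host library, and it was 7.34-fold higher (log2 2.88 ± 0.44, adjusted p = 0.000609), in all 8 fits without 1 library. Its relative Frzb, named after its values were seen, stood at 9.55, 21.3, 20.8 and 46.3 against 3.80, 7.30, 7.72 and 9.20 CPM (1.81 ± 0.46, adjusted p = 0.0437) and passed in 1 of those fits, the one without deficient-host replicate 1 (adjusted p at most 0.186 in the others). In the list of 17 activin, TGF-beta and Wnt antagonist genes, which holds Sfrp4 and Inhba but not Frzb, 1 rose and 1 fell (median 0.24).

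Glycam1 encodes a sugar-bearing ligand of L-selectin, known from the high endothelial venules of lymph nodes and from the mammary gland. It stood at 2.14, 3.61, 1.31 and 2.69 CPM in deficient-host and 0.0819, 0, 0.408 and 0.121 CPM in Cre-host lesions, which is 43 to 161 counts against 0 to 16. It was 15.8-fold higher (log2 3.98 ± 0.59, adjusted p = 0.000390) in groups that did not overlap, which in this direction occurred in 3.03% of all genes. The T-cell-rich deficient-host library was the lowest of its 4.

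The monocyte genes Cx3cr1 and Ms4a4c rose. Cx3cr1, the fractalkine receptor of monocytes and of some resident macrophages, stood at 27.0, 20.1, 45.9 and 24.0 CPM in deficient-host and 12.2, 9.25, 6.78 and 5.34 CPM in Cre-host lesions (3.48-fold higher, log2 1.80 ± 0.32, adjusted p = 0.00336). Ms4a4c, a membrane protein gene of monocytes, stood at 7.07, 4.94, 27.5 and 3.75 against 2.90, 0.516, 1.12 and 0.555 CPM (3.09 ± 0.60, adjusted p = 0.00788). In both genes all deficient-host libraries were above all Cre-host libraries, replicate 3 was the highest, and the call held in all 8 fits without 1 library. Across 17 macrophage and monocyte genes Cx3cr1 was the single call (median −0.42). Icam2, from the list of resident peritoneal macrophages that endothelium also uses, was the 1 of 8 that rose (8.55, 7.56, 13.7 and 9.29 against 4.40, 7.16, 5.76 and 5.70 CPM, 0.76 ± 0.17, adjusted p = 0.0197), lost without deficient-host replicate 3 or Cre-host replicate 1 or 4 (adjusted p at most 0.104).

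Of 22 measured genes that interferons induce against viruses 6 rose and none fell, all 22 log2 fold changes were above 0 (median 1.61), and 10 had groups that did not overlap. Over all genes, 3.03% had no overlap in this direction. The list's summed share of counts did overlap, since Cre-host replicate 1, at 0.0932%, exceeded 3 of the 4 deficient-host libraries. Ifit1 stood at 18.1, 19.6, 52.5 and 17.3 CPM in deficient-host and 8.14, 2.23, 7.55 and 2.004 CPM in Cre-host lesions (5.40-fold higher, log2 2.43 ± 0.56, adjusted p = 0.0232). Isg15, a ubiquitin-like modifier, stood at 6.46, 7.85, 19.1 and 8.78 against 3.06, 1.60, 4.05 and 1.88 CPM (1.99 ± 0.49, adjusted p = 0.0356). All deficient-host libraries were above all Cre-host libraries for both genes. The other 4 were Ifit2 (1.69 ± 0.40, adjusted p = 0.0273), Rtp4 (1.90 ± 0.44, adjusted p = 0.0255) and, named after their values were seen, Irf7 (2.16 ± 0.54, adjusted p = 0.0420) and Rsad2 (1.59 ± 0.40, adjusted p = 0.0419). Outside the list, the interferon-induced genes Ifi213 (2.53 ± 0.64, adjusted p = 0.0419) and Ifi27l2a (2.22 ± 0.44, adjusted p = 0.00850) were among the 12 highest, and neither passed without deficient-host replicate 3 or Cre-host replicate 2 or 4 (adjusted p at most 0.239 and 0.0569).

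These calls moved with deficient-host replicate 3, the T-cell-rich library, which was the highest of the 8 for Ifit1, Ifit2, Isg15, Irf7, Rtp4, Ifi213 and Ifi27l2a. Without it none of the 22 passed and the median was 0.96. None passed without Cre-host replicate 2 or without Cre-host replicate 4 either (medians 1.49 and 1.43), whereas 15 passed when replicate 1 of both groups was left out. Without replicate 3, Ifit1 was at 1.89 (adjusted p = 0.0908) and Irf7 at 1.32 (adjusted p = 0.227). In the remaining 3 deficient-host libraries Ifit1 was still above every Cre-host library. The part of T cells in the interferon calls was not tested beyond these values.

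Interferon-induced genes are bound by the factors ISGF3 and IRFs at a repeated motif, whose core, GAAA, any 2 bases and GAAA again, was searched on both strands of the same promoters. It was held by 10 of 16 matched members of the list (62.5%), by 7 of 57 matched genes that rose (12.3%) and by 3.89% of 13410 genes. Ifit1 and Isg15 are shown because both rose and their matches are repeated within the 250 bases before the start. Capitals mark the matches, whose last bases lie 95 and 76 bases before the start of Ifit1, there on the opposite strand, and 69, 63 and 57 bases before that of Isg15, where they overlap. Ifit1 lies on the plus strand (chr19:34640639-34640888) and Isg15 on the minus strand (chr4:156200819-156201068).
Ifit1: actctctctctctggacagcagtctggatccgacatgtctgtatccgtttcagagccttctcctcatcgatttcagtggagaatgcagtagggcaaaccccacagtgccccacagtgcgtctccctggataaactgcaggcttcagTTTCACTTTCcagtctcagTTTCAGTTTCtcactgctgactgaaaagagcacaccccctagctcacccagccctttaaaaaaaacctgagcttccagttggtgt
Isg15: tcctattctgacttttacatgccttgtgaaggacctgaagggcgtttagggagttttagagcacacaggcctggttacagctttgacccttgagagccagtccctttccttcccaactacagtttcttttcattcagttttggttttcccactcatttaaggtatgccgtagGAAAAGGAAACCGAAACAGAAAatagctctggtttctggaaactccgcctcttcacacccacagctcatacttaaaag
As above, a match is a description of the sequence.

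Of 20 measured cell-division genes 3 rose, none fell, all 20 log2 fold changes were above 0 (median 1.11) and 16 had groups that did not overlap, against 3.03% of all genes. Mki67, the marker of cycling cells, stood at 137, 130.3, 302 and 177 CPM in deficient-host and 91.5, 74.7, 58.9 and 95.3 CPM in Cre-host lesions (2.33-fold higher, log2 1.22 ± 0.31, adjusted p = 0.0415). Its deficient-host libraries were all higher, with replicate 3 at the top. Ccnb2, a mitotic cyclin, was at 1.45 ± 0.35, adjusted p = 0.0331 and Kif11, a motor of the mitotic spindle, at 1.27 ± 0.31, adjusted p = 0.0341. No member passed without deficient-host replicate 3 (median 0.88), without deficient-host replicate 4 or without Cre-host replicate 2 or 4, and 14 passed by DESeq2. Without deficient-host replicate 1 there were 5, and 1 each without Cre-host replicate 1 or 3. The motif TTTGAA, the core of an element of mitotic promoters, was held on either strand by 10 of 16 matched members (62.5%) and 15.7% of 13410 genes.

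The highest fold changes also held genes of mixed or unknown role. Peg10, an imprinted gene of retrotransposon origin that is abundant in placenta, stood at 16.7, 15.3, 307 and 20.9 CPM in deficient-host and 8.71, 7.46, 10.04 and 7.15 CPM in Cre-host lesions (log2 3.43 ± 0.66, adjusted p = 0.00692). Replicate 3 was far above the others, and without it the value was 1.09 (adjusted p = 0.172). The noncoding gene Gm45418 (2.61 ± 0.57, adjusted p = 0.0165) likewise did not pass without it (adjusted p = 0.0577). The pseudogene Ncoa4-ps stood at 3.13 to 7.91 against 0.211 to 0.821 CPM (3.73 ± 0.81, adjusted p = 0.0165), lost without Cre-host replicate 2 (adjusted p = 0.0903). Gm40847, Gm6969 and Gm7993, described with the floxed genotype below, complete the 12.

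Markers of other cell types were examined in the same way. None of 12 T cell or 9 NK and cytotoxic genes passed (medians 1.62 and 1.59), and both medians turned negative without deficient-host replicate 3 (−0.67 and −0.55). Cd8a, the co-receptor of cytotoxic T cells, stood at 1.63, 1.59, 68.8 and 1.002 CPM in deficient-host and 6.88, 0.422, 1.40 and 0.410 CPM in Cre-host lesions, so that replicate 3 of the deficient-host lesions was far above the other 7 libraries. Leaving out Cre-host replicate 1, 8 T cell genes passed as higher. None of 17 genes of endometrial epithelium passed (median 1.30, −0.09 without deficient-host replicate 3). Epcam ranged from 1.25 to 100.2 against 0.655 to 20.9 CPM. No skeletal muscle gene passed either, though all 16 were above 0 (median 0.92). They took 1.02% to 6.25% of the counts in deficient-host and 0.240% to 3.75% in Cre-host lesions. All 12 neutrophil genes and all 13 mitochondrial mRNAs were above 0 without a call (medians 0.75 and 0.78). The part of these transcripts in other results was not tested.

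None of 10 genes of mesothelium, the lining of the peritoneum, passed, but 6 had all deficient-host libraries below all Cre-host libraries, as did 4.31% of all genes. The list's median was −1.01, and between −1.18 and −0.87 in the 8 fits without 1 library. In own-host lesions the median was −0.32, with 0 genes called. Msln, mesothelin, stood at 5.77, 7.78, 3.71 and 6.41 CPM against 19.8, 18.5, 12.4 and 19.2 (−1.56 ± 0.64, adjusted p = 0.264), and Lrrn4 at 22.3, 14.4, 10.04 and 16.01 against 45.3, 50.1, 38.6 and 63.6 CPM (−1.66 ± 0.66, adjusted p = 0.239). The endothelial receptor gene Kdr was the 1 of 11 endothelial genes that rose (96.3, 108, 49.8 and 98.8 against 36.0, 49.4, 56.5 and 63.8 CPM, 0.78 ± 0.18, adjusted p = 0.0266), with its lowest deficient-host library, replicate 3, within the Cre-host range. Kdr did not pass without deficient-host replicate 1, 2 or 4 or Cre-host replicate 1 or 2 (adjusted p at most 0.103). The fat hormone gene Lep, the 1 of 10 adipocyte genes that rose, held 358, 187, 1 and 39 counts against 0, 1, 2 and 0 (adjusted p = 0.0488, and passing in 1 of 8 fits without 1 library, the one without deficient-host replicate 3). None of 14 liver genes passed, but all 14 fold changes were above 0 and 4 had groups that did not overlap, against 3.03% of all genes. Liver transcripts took 0.000576%, 0.0227%, 0.00122% and 0.0425% of the counts in deficient-host and 0.000303% to 0.000903% in Cre-host lesions, and their part in other results was not tested.

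**Figure D3:**
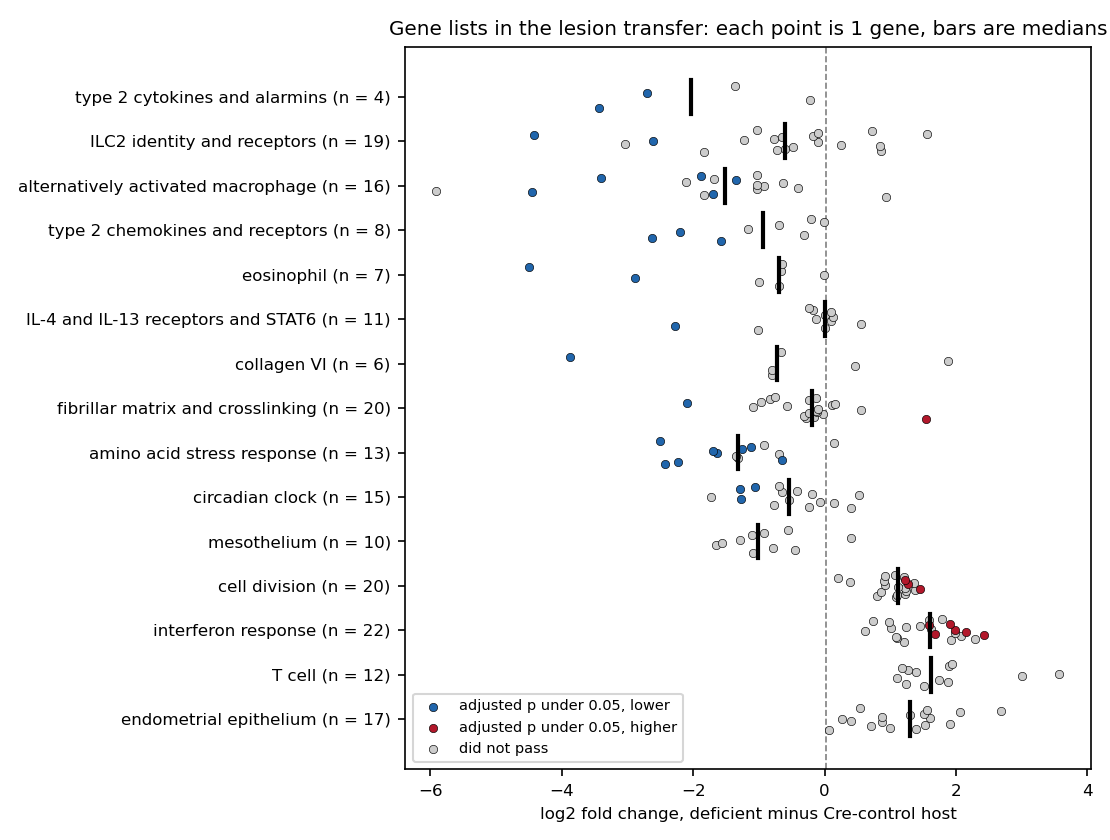
Log2 fold change of deficient-host over Cre-host lesions for the members of 15 gene lists, 1 point per gene, coloured where the adjusted p was under 0.05, with the list's median as a bar and the median of all genes as a dashed line. Type 2, macrophage and amino acid lists lie to the left. Cell-division, interferon, T cell and endometrial epithelium lists lie to the right with all members above 0, and no T cell or epithelial gene was called.

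Own-host lesions, in which fragment and host have the same genotype, differed in 813 of the 21249 genes (3.83%), 467 lower (2.20%) and 346 higher (1.63%) in deficient lesions. Their groups did not overlap in 6.83% of genes in the lower and 4.91% in the higher direction. Liver transcripts took 2.51% of the counts in own-host deficient replicate 2 and 5.73% in own-host Cre-control replicate 3, and 331 genes passed without both libraries. Leaving out 1 library gave 202 genes without deficient replicate 4, 309 without deficient replicate 2, 344, 310 and 501 without Cre-control replicates 1, 2 and 3, and at most 760. Of the 125 genes lower in the transfer, 79 were also lower there (63.2% of the transfer list and 16.9% of the own-host list), and of the 89 higher genes 45 were also higher (50.6% and 13.01%). Over the fits without 1 own-host library, 46 to 79 of the 125 and 21 to 40 of the 89 were also called own-host, and 58 and 29 without the liver-rich libraries. No gene was called in opposite directions in any of these. The own-host fold change had the same sign for 124 of 125 lower and 88 of 89 higher genes, with 2 exceptions that were singled out after their values were seen. They were Pcdh15, a cadherin gene, at −2.51 ± 0.62 in the transfer and 0.07 ± 0.58 own-host, and the uncharacterised gene 4930597L12Rik, at 1.36 ± 0.34 and −0.67 ± 0.34. The median was −1.38 in the transfer and −1.08 in own-host lesions for the lower genes, and 1.45 and 1.13 for the higher.

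**Figure D4:**
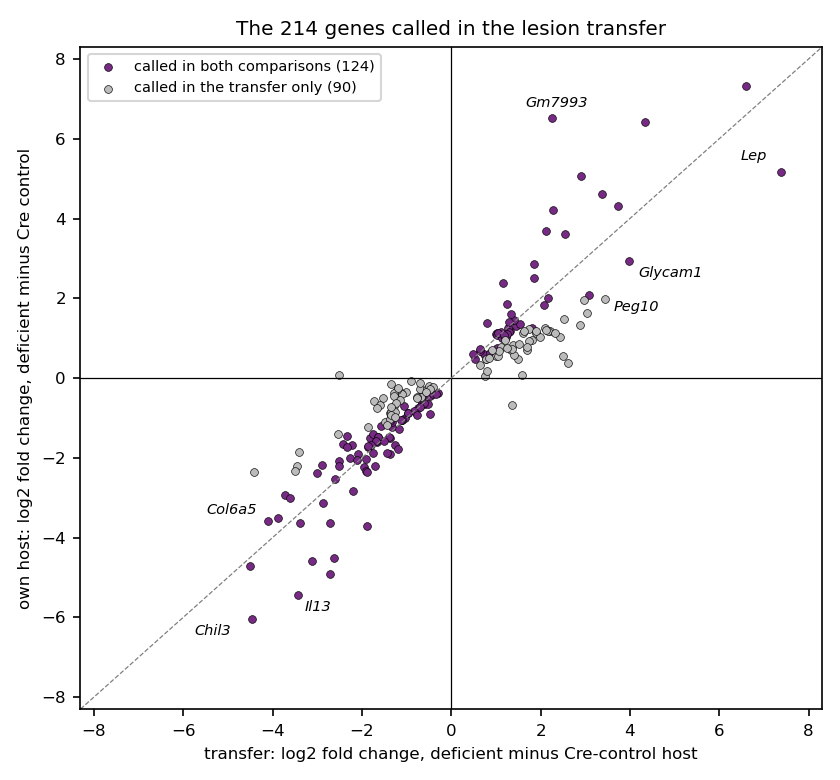
Log2 fold changes of the 214 genes called in the transfer (horizontal axis) against those of the same genes in own-host lesions (vertical axis), coloured by whether the own-host comparison also called them. All but 2 genes have the same sign on both axes.

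Members of the type 2 groups are given side by side for both comparisons. Own-host deficient lesions held Il13 at 0.0443, 0.0306, 0.0534 and 0.0869 CPM against 2.21, 3.56, 2.71 and 1.55 CPM in Cre controls, a log2 fold change of −5.44 ± 0.62, adjusted p = 2.84e-06, where the transfer gave −3.43 ± 0.55. Il5 was at −4.92 ± 0.58 own-host and −2.70 ± 0.49 in the transfer, and Ccl17 at −4.52 ± 0.66 and −2.62 ± 0.60. For these 3 genes every deficient-host library of the transfer was above every own-host deficient library, but the difference between comparisons did not pass (adjusted p = 1.00 for each). In 4 further IL-33-treated deficient libraries, whose titles also name PBS, Il13 stood at 0.0505 to 0.251 CPM and Il5 at 0.0419 to 0.126 CPM. Both ranges overlapped the deficient-host lesions of the transfer (0.112 to 0.213 and 0.0897 to 0.264 CPM). Ccl17, at 0.433 to 0.482 CPM, stayed below them. Col6a5 was at −3.50 ± 0.53 own-host and −3.87 ± 0.54 in the transfer, Ear2 at −3.15 ± 0.39 and −2.88 ± 0.39, and Il1rl1 at −2.53 ± 0.44 and −2.60 ± 0.44.

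Genes called in the transfer that did not pass own-host include the 6 interferon genes, of which none of 22 passed own-host (median 0.89), and Sfrp4 (own-host 1.34 ± 0.41, adjusted p = 0.0597), Per2 (−0.37 ± 0.25, adjusted p = 0.441) and Nmur1 (−2.34 ± 0.91, adjusted p = 0.136). The difference between comparisons did not pass for any of these either, so the 2 comparisons are not shown to differ in them. Among cell-division genes 12 of 20 rose own-host (median 1.18), and among amino acid stress genes 8 of 13 fell (median −1.05). Gata3 fell own-host (−1.82 ± 0.39, adjusted p = 0.00917).

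Tested directly, the difference between the comparisons, which sums Cre-control minus deficient fragment over both hosts, passed in 1 of 21249 genes by edgeR (0.00471%). At an unadjusted p under 0.05 there were 834 genes, and DESeq2 called 13. The single gene was Gm7993, a processed pseudogene on chromosome 5, 95974240 to 95975623, singled out after its values were seen. It stood at 7.30, 4.85, 4.26 and 4.04 CPM in deficient-host and 0.109, 0.704, 1.33 and 2.12 CPM in Cre-host lesions, and at 6.93, 5.79, 7.74 and 7.77 and 0.0589, 0.0494, 0.0746 and 0.113 CPM in own-host deficient and Cre-control lesions. The transfer means, 5.11 and 1.07 CPM, lay between the own-host means, 7.06 and 0.0739 CPM. Replicate 1 of each transfer group lay within the range of the own-host lesions with the same host genotype. The difference between the comparisons was −4.25 ± 0.68, adjusted p = 0.0101.

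Gm7993 belongs to 10 transcripts that followed the floxed genotype in the 33 libraries outside the transfer, each at least 2-fold apart without overlap between 22 floxed and 11 non-floxed libraries. They were drawn up after values were seen, without use of the transfer libraries. The floxed libraries include 4 deficient ones given PBS without IL-33, and others from mice that received 120000 or 250000 ILC2s. The non-floxed libraries include C57Bl/6J lesions, some from mice that received 120000 ILC2s. On a scale where the mean non-floxed library is 0% and the mean floxed library 100%, the median over the 10 transcripts was 96.1% to 106.8% in floxed and −2.30% to 5.36% in non-floxed reference libraries. In deficient-host lesions, whose fragments are not floxed, it was 98.5%, 67.7%, 62.6% and 32.6%. In Cre-host lesions, whose fragments are floxed, it was 9.21%, 9.85%, 29.7% and 24.3%. In 7 of the 8 libraries, all but deficient-host replicate 4, the median was thus nearer to the reference of the host's genotype than to that of the fragment.

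The library with the highest median, deficient-host replicate 1 at 98.5%, was the one with 3 counts of Hoxa11, and deficient-host replicate 4 at 32.6% had the highest Hoxa11 level, 43.9 CPM. With both replicate 1 libraries left out, 272 genes passed. Of the 10, 5 lie on chromosome 12, as does Id2, among them Gm6969 (chromosome 12, 24638669 to 24639010), which stood at 23.3, 15.1, 15.6 and 11.1 CPM in deficient-host and 1.01, 1.99, 5.35 and 5.07 CPM in Cre-host lesions (2.28 ± 0.32, adjusted p = 0.000254). Gm40847, on chromosome 12, 18853840 to 18906503 but not among the 10, stood at 2.09, 0.763, 0.670 and 0.712 against 0.0273, 0.0939, 0.0255 and 0.0483 CPM (4.34 ± 0.70, adjusted p = 0.00139). Of 54 measured genes within 5 Mb of Id2, 4 rose and none fell (median 0.04), where 0.419% of all genes rose and 0.588% fell. In own-host lesions 9 of the 54 rose and 8 fell (median 0.07), where 1.63% of all genes rose and 2.20% fell. In 4 IL-33-treated Id2fl/fl libraries without the Cre, which are among the 22 that chose the 10 transcripts, Gm6969 stood at 21.2 to 25.9 CPM and Gm7993 at 6.03 to 7.96 CPM, beside Il13 at 0.438 to 1.17 CPM. Other genes that fell in the transfer were mixed in these Id2fl/fl libraries, and were named after their values were seen. Il1rl1 (12.4 to 21.9 CPM), Ccl24 (3.63 to 10.2) and Asns (12.0 to 21.6) overlapped the deficient-host lesions and lay below every Cre-host lesion. Col6a5 (1526 to 2303 CPM), Retnla (528 to 1440) and Ear2 (16.0 to 32.7) lay above every deficient-host lesion. Own-host deficient lesions, with Il13 at 0.0306 to 0.0869 CPM, held Gm6969 at 18.0 to 22.7 CPM. These own-host libraries are among the 22 as well, so the choice of the transcripts set their floxed level in both groups. Their relation to Il13 was not tested.

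**Figure D5:**
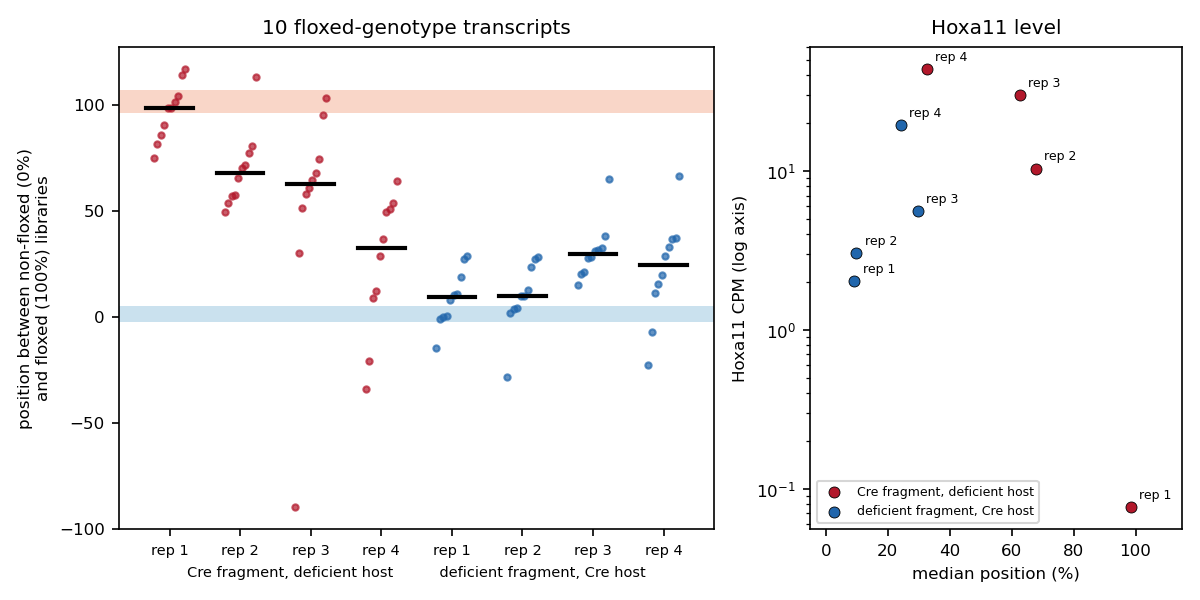
Left, position of 10 floxed-genotype transcripts between the means of non-floxed (0%) and floxed (100%) libraries in each of the 8 transfer libraries, 1 point per transcript with the median as a bar and the range of medians in floxed and non-floxed reference libraries as shaded bands. Right, Hoxa11 level in CPM (log axis) against that median, 1 point per library, where deficient-host replicate 1 has the highest median, 98.5%, and the lowest Hoxa11 level.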

How the data were processed

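Whole-lesion libraries were compared by the genotypes in their titles. The values are raw counts per gene that the authors deposited in 1 table of 21249 genes and 41 libraries. Trimmomatic, STAR, HTSeq, edgeR, limma and the build GRCm38 are named, per the submitters' processing notes, with no version, annotation or strand setting. No gene in it had under 411 counts in total, and some list members, such as Il4, Areg and Epx, were not analysed here. Reads of near-identical relatives (Chil3 and Chil4, Ear2 and Rnase2a, pseudogenes) may be split, and overlapping genes are uncertain.

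The test was edgeR's robust quasi-likelihood F-test (version 4.0.16, R 4.3.3), two-sided, with 11 group means over 41 libraries, TMM scaling and Benjamini-Hochberg adjustment at 0.05. It was first tested on simulated data. The filter on low counts removed 0 genes. Standard errors are the size of the log2 fold change divided by the root of F, CPM uses TMM-scaled totals, and the biological coefficient of variation was 0.465. DESeq2 1.42.0, other scalings, filters and library subsets were alternatives. Symbols were placed with GENCODE M21. No pair of libraries within a group agreed within sampling noise.

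Named genes were a panel of 19, the 12 lowest and 12 highest fold changes among called genes without overlap and with a mean of at least 1 CPM in the higher group, and up to 4 members with the smallest p in each list. Of the 12 lowest, 1 is not reported here. The highest or lowest differences between comparisons, up to 5 each way, needed no overlap between fragment genotypes, and 0 qualified. The genes, the lists and the comparison were chosen with earlier results of these data known.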

Additional observations from a re-analysis of the deposited data

Results flagged for a closer look

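In groups of 4 libraries, single values were checked on the log2 scale of CPM, while the levels printed are CPM. A highest or lowest value is named if its gap to the next, as a share of the group's range, exceeds Dixon's 95% critical value. Chance flags about 1 in 20 groups, and 186 groups were tested (93 genes in both transfer groups). Of the 16 values found, 14 came from deficient-host replicate 3.

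Replicate 3 stood alone at the top of the deficient-host lesions for T cell and shared lymphocyte genes: Cd3e at 79.6 CPM and Cd8a at 68.8 CPM, Gata3 at 14.4 CPM, Il2ra at 23.1 CPM and Il1rl1 at 16.95 CPM. It was also alone at the top for the interferon-induced genes Ifit1 at 52.5 CPM, Ifit2 at 87.8 CPM, Irf7 at 133 CPM, Rtp4 at 57.03 CPM and Ifi27l2a at 47.6 CPM. The same held for the arginine transporter gene Slc7a2 at 382 CPM and the imprinted gene Peg10 at 307 CPM. It was alone at the bottom for the endothelial receptor genes Kdr at 49.8 CPM and Aplnr at 44.3 CPM.

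Deficient-host replicate 1 was alone at the top for Gm40847 at 2.09 CPM, and Cre-host replicate 3 alone at the bottom for the mesothelial gene Msln at 12.4 CPM. For Gm7993, a pseudogene that follows the floxed genotype, the transfer and own-host comparisons differed by −4.25 on the log2 scale in the test of that difference (adjusted p = 0.0101 by edgeR).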

How the results depend on the processing

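For the transfer, 214 genes passed (125 lower, 89 higher). Scaling by library totals gave 142 (44 higher), DESeq2 608 (3.00% of 20236 genes, 301 lower and 307 higher), the 16 libraries of the 4 groups 62 (45 and 17), and omission of the liver-rich libraries 355 (216 and 139). Liver-rich libraries were those with over 1% of counts from liver transcripts, and no transfer library was among them (at most 0.0425%). The 8 transfer libraries alone gave 3 lower and 0 higher. The own-host comparison, with 813 genes, gave 247 with library totals, 1480 with DESeq2, 448 with the 16 libraries and 331 without liver-rich libraries. The difference between comparisons, 1 gene, became 13 with DESeq2 and 0 in the last 2 settings. For all of these the cause was not tested. Leaving out each library gave 54 to 244 genes for the transfer (36 to 166 lower, 17 to 101 higher), 202 to 760 own-host and 0 to 7 for the difference. Settings chosen after seeing the data were the omission of both T-cell-rich libraries (153 genes, 36 higher, 102 of them shared with the 214) and of both replicate 1 libraries (272, 153 higher). A replicate block gave 195 genes in all libraries, 181 of them among the 214, with 14 of 75 called named genes lost, and 0 genes in the 8 alone. Deviations of same-numbered transfer libraries correlated at 0.561, 0.0416, 0.105 and 0.357, and deficient-host replicate 3 correlated best with Cre-host replicate 4. Since 1 of the 4 pairs was not above 0.1, pairing was not shown, and it is not excluded. The 214 genes kept their sign in every setting where they were tested, but these settings reuse the libraries that chose them. Of 93 named genes, 5 changed sign in some setting, none of them called with all libraries. Klrg1 ran from −1.02 to 0.053 when 1 library was left out and was at 0.16 without both replicate 1 libraries, where Gata3 was at 0.036. Cd3e ran from −0.66 to 3.53 and Cd8a from −0.67 to 4.61 when 1 library was left out, both lowest without deficient-host replicate 3. Epcam was at −0.14 without both T-cell-rich libraries. Of 1497 pairs of a called named gene and a setting, 525 lost the call. Depth limits genes such as Il5, Nmur1 and Glycam1, with 0 to 16 counts per library in the lower group.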

Other observations

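Some genes that load and import amino acids were lower in deficient-host lesions, in lists that were not tested as sets. The lists in this section were drawn up, and the genes named, after values were seen. Of 20 cytosolic aminoacyl-tRNA synthetase genes 6 fell and none rose (median −0.42), while of 17 mitochondrial ones none passed (median −0.03). Sars, the serine enzyme, stood at 67.5, 63.4, 68.9 and 62.2 CPM in deficient-host and 88.4, 111, 81.2 and 118 CPM in Cre-host lesions (−0.61 ± 0.13, adjusted p = 0.0123), with no overlap. Nars (−0.68 ± 0.14, adjusted p = 0.0108) and Gars (−0.69 ± 0.16, adjusted p = 0.0255) load asparagine and glycine. Of 20 amino acid transporter genes 5 fell and none rose (median −0.17, with 7 of the 20 above 0), among them Slc7a5, a carrier of large neutral amino acids, at 16.7 to 30.0 against 36.7 to 139 CPM (−1.86 ± 0.37, adjusted p = 0.00890), and the cationic carrier gene Slc7a3 (−2.12 ± 0.43, adjusted p = 0.0104). Each of these 5 genes lost its call without Cre-host replicate 2 or 4, with adjusted p of at most 0.172, and Gars also without deficient-host replicate 1, 2 or 4.

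Lipid mediator genes fell in part: of 26 prostaglandin and leukotriene enzymes and receptors 3 were lower and none higher (median −0.35). Ptgs1, the cyclooxygenase COX-1, stood at 41.9, 41.2, 43.2 and 50.3 CPM in deficient-host and 80.8, 125.8, 66.2 and 178 CPM in Cre-host lesions (−1.35 ± 0.28, adjusted p = 0.0131). All its deficient-host libraries were lower. The prostaglandin E2 receptor gene Ptger2 (−1.09 ± 0.24, adjusted p = 0.0181) and the leukotriene B4 receptor gene Ltb4r1 (−1.43 ± 0.36, adjusted p = 0.0417) were the other 2, and all 3 lost their calls without Cre-host replicate 2 or 4 (adjusted p at most 0.179). Ptger2 also did not pass without deficient-host replicate 4, and Ltb4r1 passed in 1 of 8 fits, the one without Cre-host replicate 3. Single genes that rose, in no common list, include Thbs2, an antiangiogenic thrombospondin, at 429.8 to 854 against 171 to 358 CPM (1.35 ± 0.34, adjusted p = 0.0415), the microfibril gene Fbn2 (1.00 ± 0.24, adjusted p = 0.0321), the adipokine gene C1qtnf3 (2.07 ± 0.52, adjusted p = 0.0419), the apelin receptor gene Aplnr (1.20 ± 0.30, adjusted p = 0.0385) and the endothelial adhesion gene Sele (2.32 ± 0.54, adjusted p = 0.0255), each of which passed in at most 3 of 8 fits without 1 library (adjusted p at most 0.172). None of these 5 passed without Cre-host replicate 2 or 4.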
